A study of Mus musculus with 18 samples.

Results

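The genes described here belong to the unfolded protein response and the integrated stress response, the pair of programmes by which a cell reacts to misfolded protein in the endoplasmic reticulum (ER), to amino acid shortage and to other stress. They are Atf4, Ddit3, Atf5, Trib3, Chac1, Asns, Xbp1, Hspa5, Herpud1 and Sesn2, which are 10 of the 24062 gene symbols in the expression table. They were chosen by name for their textbook roles, with earlier results of these data known. All 10 passed the filter on low values (1 CPM, read counts scaled to the library total, or more in 3 or more libraries), as did 14604 genes in all.

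The study sequenced total RNA from C57Bl/6 kidney cortex in 18 libraries, in 6 groups of 3. Mice of both genotypes, Klf6fl/fl and Klf6PTKO, were given DMSO as vehicle or aristolochic acid I (AAI), a plant nephrotoxin that injures the proximal tubule. One set was examined after 3 weeks of AAI, and another after 3 weeks of AAI followed by 3 weeks of remodeling, a point that the sample titles call 6 weeks. Both genotypes carry floxed Klf6 alleles by name, and the study's title places the loss of Klf6 in the proximal tubule, but the driver of the knockout is not given in the sources used here. Each genotype had 1 DMSO group, which was the control at both times, and its week was not given. The labels do not say that the libraries of a group came from separate animals, so the p-values reflect variation from library to library, which may in part be technical.

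Library totals ran from 11722625 to 27213219 reads. Klf6 itself, the targeted gene, lay between 39.2 and 42.3 CPM in the fl/fl DMSO libraries and between 40.2 and 56.7 CPM in those labelled PTKO. Its log2 difference of PTKO from fl/fl was 0.19 with DMSO (limma adjusted p = 1), -0.04 (adjusted p = 0.90) after 3 weeks of AAI, and 0.16 (adjusted p = 0.58) by 6 weeks. In whole cortex its level thus did not separate the genotypes, so it goes against the labels or cannot check them, and PTKO below means the libraries labelled Klf6PTKO. Summed levels of 10 proximal tubule markers were 22168 to 23896 CPM with DMSO, against 2992 to 4999 in fl/fl and 5994 to 8064 in PTKO after 3 weeks of AAI, and 4433 to 7681 and 6787 to 10030.0 at 6 weeks. Summed macrophage markers went the other way, from 133 to 194 CPM with DMSO to 5334 to 8952 in fl/fl and 1813 to 3579 in PTKO at 3 weeks, and 3071 to 5311 and 1152 to 2562 at 6 weeks. Fibroblast markers (180 to 425 CPM with DMSO, 5087 to 6537 in fl/fl and 2147 to 2835 in PTKO at 3 weeks) and plasma cell markers (70.5 to 287 CPM with DMSO, 314 to 1036 and 305 to 373) moved in the same direction. After the data were seen, and by no fixed criterion, 4 libraries were taken as standing apart. These were PTKO DMSO replicate 2 and 6-week PTKO replicate 2 (summed adipocyte markers of 307 and 689 CPM), PTKO DMSO replicate 3 (chaperone genes, below) and 6-week fl/fl replicate 2, which had the fewest reads and 7681 CPM of proximal tubule markers against 4433 and 5094 CPM in its group mates. Of the 10 adipocyte markers only 3 passed the filter on low values. Also apart, but not among those 4, was 6-week PTKO replicate 3, with 425 CPM of fibroblast markers against 1184 and 1406 CPM and 1152 CPM of macrophage markers against 2177 and 2562 CPM. In such bulk tissue, fewer cells of a type and less RNA per cell cannot be told apart, and the part of this change in cell types in the results below was not tested.

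As background, the integrated stress response runs through kinases that phosphorylate the translation factor eIF2. Bulk protein synthesis slows while the mRNA of the transcription factor ATF4 is translated more, and ATF4 then raises genes for amino acid synthesis and uptake and, with time, Ddit3, which encodes the transcription factor CHOP. The unfolded protein response uses PERK, one of those kinases, together with the ER sensors IRE1 and ATF6, which raise chaperones and the machinery that removes misfolded proteins from the ER. Proximal tubule cells make and recycle large amounts of membrane protein and are known to show these responses in toxic injury. The data are mRNA levels per gene. They do not show ATF4 translation, eIF2 phosphorylation or the splicing of Xbp1 by IRE1.

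Promoter windows (250 bases before to 50 after the start site) were taken from RefSeq on GRCm38.p6 for all 10 genes, 11 windows in all, and searched on both strands for motifs known from these pathways. The composite C/EBP-ATF element (TGATGNAA), a known type of ATF4 binding site, was found in 4 of the 10 genes, Chac1, Trib3, Asns and Herpud1, and in 3.97% of all 32851 windows. The ER stress element of chaperone promoters (CCAAT and CCACG with any 9 bases between) was found in Hspa5 and in 0.119% of windows, and ER stress element II (ATTGG and CCACG with any 1 base between) in Herpud1 and in 0.0365%. Neither the unfolded protein response element (TGACGTGG, 0.676% of windows) nor the cAMP response element (TGACGTCA, 1.79%) was found in any of them. These are matches of letters, not shown sites of binding. The sequences that hold the matches upstream of the start site are given 5′ to 3′ for 4 genes that behaved differently below (Asns and Chac1, which rose, Hspa5, which was not called, and Herpud1, which fell). Capitals mark the matches, and the GENCODE models of Hspa5 and Asns begin within the stretch shown.
Asns, chr6:7693210-7693359 (minus strand, 150 bases up to the start site, with the composite element): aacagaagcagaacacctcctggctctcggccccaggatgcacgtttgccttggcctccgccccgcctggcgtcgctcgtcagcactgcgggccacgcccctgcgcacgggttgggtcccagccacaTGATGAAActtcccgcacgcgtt
Chac1, chr2:119350992-119351141 (plus strand, bases -250 to -101 from the start site, with the composite element on the other strand): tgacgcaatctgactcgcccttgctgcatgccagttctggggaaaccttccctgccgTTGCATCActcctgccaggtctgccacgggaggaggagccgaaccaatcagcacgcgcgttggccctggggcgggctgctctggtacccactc
Hspa5, chr2:34771940-34772089 (plus strand, 150 bases up to the start site, with the ER stress element): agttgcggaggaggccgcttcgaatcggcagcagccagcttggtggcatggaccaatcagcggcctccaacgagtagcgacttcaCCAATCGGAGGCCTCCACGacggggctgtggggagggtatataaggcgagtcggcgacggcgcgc
Herpud1, chr8:94386279-94386428 (plus strand, 150 bases up to the start site, with the composite element on the other strand and ER stress element II): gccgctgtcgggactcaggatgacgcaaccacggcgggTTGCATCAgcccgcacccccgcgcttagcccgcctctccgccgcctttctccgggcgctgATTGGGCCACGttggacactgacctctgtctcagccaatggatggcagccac

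The first question was how AAI changed these genes in each genotype. After 3 weeks of AAI in fl/fl mice, 7 of the 10 genes rose (Atf4, Ddit3, Atf5, Trib3, Chac1, Asns and Xbp1), Herpud1 fell, and Hspa5 and Sesn2 did not pass the test (limma on log2(CPM + 1), Benjamini-Hochberg adjusted p under 0.05). In PTKO at 3 weeks the same 7 rose and Herpud1 and Sesn2 fell, and in fl/fl at 6 weeks the same 7 rose and Herpud1 and Sesn2 fell. In PTKO at 6 weeks those 7 rose and only Sesn2 of the 10 fell. AAI moved most of the transcriptome, so these counts must be read against the share of all tested genes that passed in each direction. That share was 58% higher and 18.2% lower (76.1% in all) in fl/fl at 3 weeks, and 57.2% and 13.9% (71.1%) in PTKO. At 6 weeks it was 59.8% and 13.9% (73.7%) in fl/fl and 53.7% and 11.4% (65.1%) in PTKO. A count of 7 in 10 is near that background, so the sizes of the changes are given as well. The genes were chosen with earlier results of these data known, so these sizes describe the set and are not independent evidence. The median log2 change of the 10 was 1.04, 0.69, 0.83 and 0.82 in those 4 comparisons, beside 0.45, 0.42, 0.45 and 0.36 over all tested genes. Both times share 1 DMSO group per genotype, so the values at 3 and 6 weeks are not independent.

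**Figure D1:**
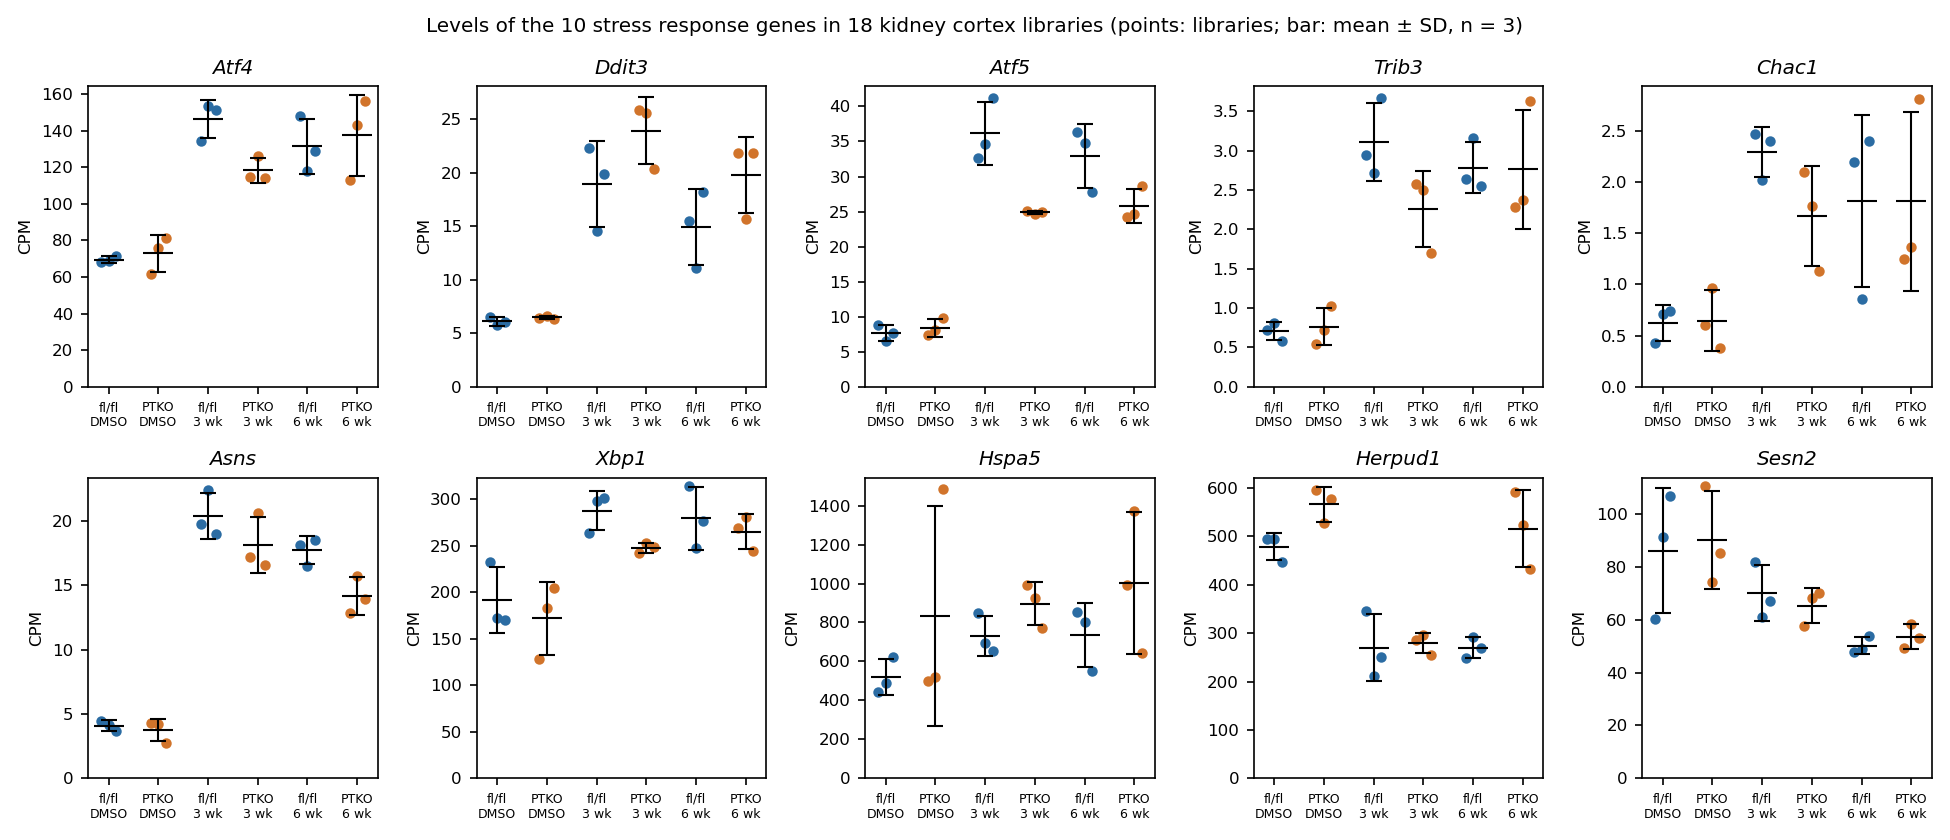
Level of each of the 10 genes (y axis, CPM, each panel from 0) in the 6 groups (x axis), with 1 point per library, blue for fl/fl and orange for PTKO, and black bars for the mean ± SD (n = 3). Atf4, Ddit3, Atf5, Trib3, Chac1 and Asns sit higher in every AAI library than in the DMSO libraries of their genotype, while Hspa5 spreads from 497 to 1484 CPM within the PTKO DMSO group alone.

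Atf4, the central transcription factor of the integrated stress response (chromosome 15, 80255184 to 80257541, plus strand, mm10), rose 1.62- to 2.10-fold in mean CPM with AAI. It stood at 68.4, 68.6 and 71.7 CPM in fl/fl mice given DMSO and 61.7, 75.8 and 81.5 CPM in PTKO DMSO. After 3 weeks of AAI it was 134, 153 and 151 CPM for fl/fl and 115, 126 and 114 CPM for PTKO, and at 6 weeks 148, 118 and 129 CPM and 113, 143 and 156 CPM. Every AAI library lay above every DMSO library. The log2 change was 1.06 in fl/fl at 3 weeks (SE 0.12, adjusted p = 8.0e-07) and 0.70 in PTKO (adjusted p = 9.3e-05), and 0.90 in each genotype at 6 weeks. In PTKO at 3 weeks the call depends on the scaling of the libraries, since median-of-ratios scaling gave 0.25 (adjusted p = 0.0625), and edgeR on read counts 0.26 (adjusted p = 0.052).

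Ddit3, which encodes the pro-apoptotic factor CHOP (chromosome 10, 127290774 to 127296288, plus strand), rose 2.44- to 3.69-fold in mean CPM with AAI. It stood at 6.54, 5.74 and 6.08 CPM in fl/fl DMSO and 6.44, 6.64 and 6.36 CPM in PTKO DMSO. With 3 weeks of AAI it was 22.4, 14.6 and 19.9 CPM for fl/fl and 25.8, 25.6 and 20.3 CPM for PTKO, and at 6 weeks 15.5, 11.1 and 18.2 CPM and 21.8, 15.7 and 21.8 CPM. The lowest AAI library was thus above the highest DMSO library. The log2 changes were 1.47 (SE 0.18, adjusted p = 1.7e-06) in fl/fl and 1.73 (adjusted p = 5.0e-07) in PTKO at 3 weeks, and 1.14 (adjusted p = 3.4e-05) and 1.46 (adjusted p = 5.2e-06) at 6 weeks. Its exons share 68 of 1713 bases with Mars, a tRNA synthetase gene on the opposite strand, and the annotation lists a second gene with the symbol Ddit3 at the same place. Whether strand was used in counting is not given in the sources used here.

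Atf5 encodes a factor of the same family, also under translational control and linked to the mitochondrial stress response (chromosome 7, 44812256 to 44816658, minus strand). It had the largest change of the transcription factors among the 10 in fl/fl, from 8.84, 6.55 and 7.72 CPM with DMSO to 32.7, 34.6 and 41.2 CPM at 3 weeks and 36.3, 34.7 and 27.8 CPM at 6 weeks. The PTKO libraries went from 7.39, 8.03 and 9.86 CPM to 25.02, 24.69 and 24.99 CPM, and to 24.3, 24.6 and 28.6 CPM. All AAI libraries exceeded all DMSO libraries. The log2 change was 2.10 in fl/fl (SE 0.13, adjusted p = 1.6e-09) and 1.47 in PTKO (adjusted p = 1.3e-07) at 3 weeks, and 1.96 (adjusted p = 6.4e-09) and 1.51 (adjusted p = 1.8e-07) at 6 weeks. Of its 1993 exonic bases, 82 lie opposite exons of Nup62 and Il4i1.

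Trib3, a pseudokinase that CHOP and ATF4 raise and that feeds back on ATF4 (chromosome 2, 152337422 to 152344032, minus strand), rested on few reads, with 11 to 19 per library with DMSO. It went from 0.727, 0.813 and 0.581 CPM in fl/fl DMSO to 2.95, 2.72 and 3.66 CPM at 3 weeks and 2.64, 3.16 and 2.55 CPM at 6 weeks. In PTKO it went from 0.549, 0.722 and 1.02 CPM to 2.57, 2.50 and 1.70 CPM, and to 2.28, 2.37 and 3.63 CPM. No AAI library fell within the DMSO range. The log2 changes were 1.26 (adjusted p = 3.8e-06), 0.88 (adjusted p = 0.00020), 1.15 (adjusted p = 1.4e-05) and 1.08 (adjusted p = 4.4e-05), a scale on which the added 1 CPM shrinks the change of so low a gene, and on the mean CPM the rise was 2.95- to 4.40-fold.

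Chac1, an enzyme that degrades glutathione and is raised by ATF4 and CHOP (chromosome 2, 119351229 to 119354381, plus strand), rests on 7 to 66 reads per library. Its level was 0.424, 0.711 and 0.740 CPM in fl/fl DMSO, then 2.46, 2.02 and 2.40 CPM at 3 weeks and 2.193, 0.853 and 2.40 CPM at 6 weeks, where replicate 2 came close to the DMSO range. In PTKO it was 0.599, 0.962 and 0.377 CPM, then 2.10, 1.76 and 1.13 CPM, and 1.25, 1.37 and 2.81 CPM. The groups did not overlap. The log2 change was 1.02 in fl/fl at 3 weeks (SE 0.24, adjusted p = 0.0012), 0.69 in PTKO (adjusted p = 0.018), and 0.75 (adjusted p = 0.011) and 0.74 (adjusted p = 0.014) at 6 weeks. The last 3 calls were each lost when 1 of 2 libraries was left out: DMSO PTKO replicate 3 (0.57, adjusted p = 0.073) or 3-week PTKO replicate 1 (0.58, adjusted p = 0.074) for PTKO at 3 weeks, 6-week fl/fl replicate 1 (0.63, adjusted p = 0.051) or 3 (0.59, adjusted p = 0.059), and DMSO PTKO replicate 3 (0.62, adjusted p = 0.059) or 6-week PTKO replicate 3 (0.50, adjusted p = 0.084). In PTKO at 3 weeks the Chac1 call was also lost with median-of-ratios scaling (0.48, adjusted p = 0.076), by edgeR (adjusted p = 0.064) and by DESeq2 (adjusted p = 0.065), and in fl/fl at 6 weeks with median-of-ratios scaling (0.51, adjusted p = 0.061). For Trib3 and Chac1 the rise was not called in any of the 4 comparisons after quantile normalization, which gave Trib3 0.04 to 0.38 and Chac1 -0.16 to 0.13.

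Asns, asparagine synthetase (chromosome 6, 7675169 to 7693254, minus strand), is the classic amino acid response gene whose composite element is printed above. It had the largest rise in PTKO among the 10 genes, and the fold of its mean was 4.98 in fl/fl and 4.82 in PTKO at 3 weeks and 4.33 and 3.77 at 6 weeks. Its libraries read 4.48, 4.17 and 3.65 CPM in fl/fl DMSO, 19.7, 22.4 and 19.0 CPM at 3 weeks and 18.1, 16.5 and 18.6 CPM at 6 weeks. In PTKO they read 4.30, 4.23 and 2.75 CPM, 17.2, 20.6 and 16.6 CPM, and 12.8, 15.7 and 13.9 CPM. The lowest AAI library was well above the highest DMSO library. The log2 changes were 2.07 (SE 0.14, adjusted p = 2.9e-09), 2.02 (adjusted p = 8.1e-09), 1.88 (adjusted p = 1.6e-08) and 1.68 (adjusted p = 1.0e-07). Under each scaling tried, the changes of Asns stayed called and between 0.93 and 2.07.

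Xbp1, the transcription factor that IRE1 activates by splicing its mRNA (chromosome 11, 5520659 to 5525893, plus strand), rose by less. It stood at 233, 172 and 170.4 CPM in fl/fl DMSO and 128, 183 and 205 CPM in PTKO DMSO. With AAI it was 264, 298 and 301 CPM for fl/fl and 242, 253 and 248 CPM for PTKO at 3 weeks, and 314, 247 and 277 CPM and 269, 281 and 244 CPM at 6 weeks. AAI and DMSO libraries of a genotype did not overlap. The log2 changes of 0.60 (adjusted p = 0.0020), 0.55 (adjusted p = 0.0040), 0.55 (adjusted p = 0.0039) and 0.65 (adjusted p = 0.0016) lay 0.15, 0.14, 0.10 and 0.29 above the all-gene medians. With median-of-ratios scaling they were 0.13, 0.10, 0.07 and 0.25, none of them called (adjusted p = 0.45, 0.57, 0.71 and 0.16). Neither edgeR nor DESeq2 on read counts called any of them, while with quantile normalization all stayed called.

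Hspa5 encodes BiP, the main ER chaperone and the usual readout of the unfolded protein response (chromosome 2, 34771970 to 34777547, plus strand). In the fit over all 18 libraries it did not pass the test in any AAI comparison. Its level was 443, 490.0 and 623 CPM in fl/fl DMSO, 848, 694 and 652 CPM at 3 weeks and 855, 804 and 551 CPM at 6 weeks. In PTKO it was 497, 518 and 1484 CPM with DMSO, 992, 925 and 774 CPM at 3 weeks and 990.3, 1373 and 643 CPM at 6 weeks. The highest value of all 18 libraries was thus in a DMSO library, PTKO replicate 3. In fl/fl the 3-week libraries all lay above the DMSO libraries, while those at 6 weeks overlapped with them. The log2 changes were 0.50 (95% interval -0.23 to 1.23, adjusted p = 0.20), 0.30 (-0.43 to 1.03, adjusted p = 0.45), 0.49 (-0.24 to 1.22, adjusted p = 0.20) and 0.40 (-0.33 to 1.13, adjusted p = 0.32). Without PTKO DMSO replicate 3 they were 0.81 (adjusted p = 0.013) and 0.91 (adjusted p = 0.0078) in PTKO at 3 and 6 weeks, both called. With the compared groups fitted alone, the fl/fl change at 3 weeks kept its size of 0.50 and was called (limma adjusted p = 0.016). With median-of-ratios scaling all 4 changes lay between -0.15 and 0.03. Quantile normalization put them between 0.67 and 0.83, with the fl/fl changes called (adjusted p = 0.027 and 0.032). Neither the size nor the call for Hspa5 is thus settled by these libraries.

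Herpud1 encodes an ER membrane protein that is a target of both arms of the stress response and takes part in the removal of misfolded proteins from the ER (chromosome 8, 94386438 to 94395377, plus strand). It holds the composite element and ER stress element II in the promoter printed above, and it was called lower in 3 of the 4 AAI comparisons. It was at 495, 494 and 447 CPM in fl/fl DMSO, and fell to 347, 212 and 249.8 CPM at 3 weeks and 248, 292 and 269.8 CPM at 6 weeks. In PTKO it was 595, 526 and 576 CPM with DMSO, fell to 285, 297 and 256 CPM at 3 weeks, and read 591, 524 and 433 CPM at 6 weeks. Only the 6-week PTKO libraries overlapped with the DMSO range of their genotype. The log2 change was -0.86 in fl/fl (SE 0.15, adjusted p = 6.7e-05) and -1.02 in PTKO (adjusted p = 1.6e-05) at 3 weeks, and -0.83 in fl/fl (adjusted p = 0.00012) but -0.14 in PTKO (95% interval -0.46 to 0.17, adjusted p = 0.41) at 6 weeks. With median-of-ratios scaling the last value was -0.54 and called (adjusted p = 0.010), as it was by edgeR (adjusted p = 0.020) and DESeq2 (adjusted p = 0.0046) on read counts.

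Sesn2, an ATF4 and p53 target that restrains the growth kinase complex mTORC1 (chromosome 4, 132492032 to 132510501, minus strand), was not called higher in any comparison. It varied widely with DMSO, at 60.4, 91.4 and 107 CPM for fl/fl and 111, 74.4 and 85.1 CPM for PTKO. At 3 weeks of AAI it was 82.0, 61.1 and 67.2 CPM in fl/fl, overlapping the DMSO range, and 57.7, 68.1 and 70.1 CPM in PTKO, below that of its genotype. At 6 weeks it was 47.6, 49.0 and 53.7 CPM for fl/fl and 49.1, 58.5 and 52.9 CPM for PTKO, below every DMSO library. The log2 changes were -0.27 (adjusted p = 0.19) and -0.44 (adjusted p = 0.036) at 3 weeks and -0.73 (adjusted p = 0.0016) and -0.72 (adjusted p = 0.0024) at 6 weeks. The PTKO call at 3 weeks was lost without DMSO PTKO replicate 1 (-0.29, adjusted p = 0.19) or 3 (-0.47, adjusted p = 0.052), or without 3-week PTKO replicate 1 (-0.36, adjusted p = 0.13) or 2 (-0.48, adjusted p = 0.051), while without DMSO fl/fl replicate 1 the fl/fl change at 3 weeks was called (-0.50, adjusted p = 0.0098). In fl/fl at 3 weeks the other two sestrins rose, though with median-of-ratios scaling, and with quantile normalization, 1 of the 3 sestrins was called higher and 1 lower. Sesn1, a p53 target, rose by 1.28 on the log2 scale (adjusted p = 3.6e-07, from a mean of 17.2 to 43.7 CPM) and Sesn3, a FoxO target, by 0.64 (adjusted p = 0.0043).

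**Figure D2:**
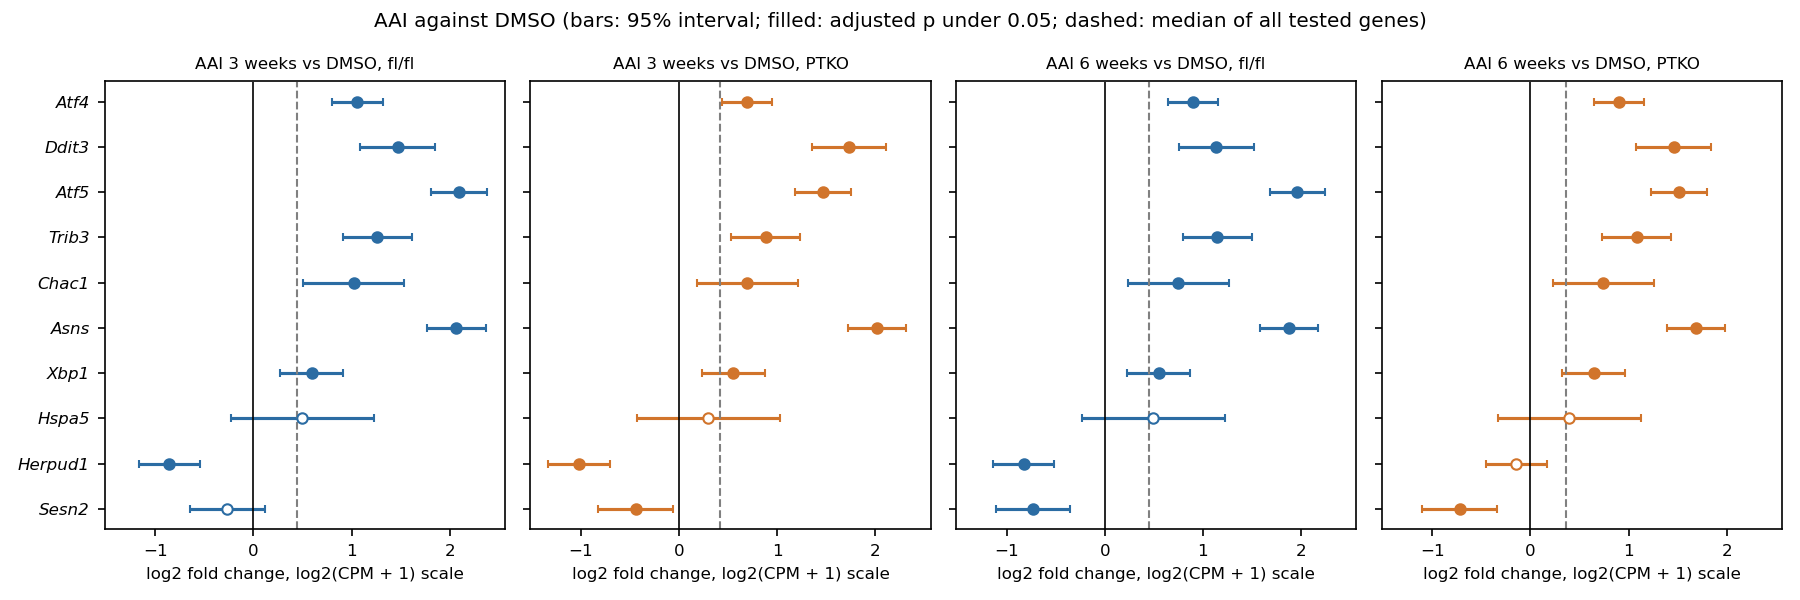
Log2 fold change of AAI against DMSO (x axis, log2(CPM + 1) scale) for each gene (y axis) in the 4 comparisons, with 95% intervals, filled points where the adjusted p was under 0.05, and a dashed line at the median of all tested genes. Asns and Atf5 lie farthest to the right, Xbp1 lies near the dashed line, the intervals of Hspa5 cross 0, and Herpud1 is at -0.86 to -0.83 in fl/fl but at -0.14 in PTKO at 6 weeks.

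The scaling of the libraries bears on all of these changes, because AAI shifted the median gene by 0.36 to 0.45 on the log2 CPM scale. With median-of-ratios scaling, which moves that median to between 0.01 and 0.03, 6 of the genes rose and 2 fell in fl/fl at 3 weeks, 4 and 2 in PTKO, 5 and 2 in fl/fl at 6 weeks, and 6 and 2 in PTKO. Over all 14604 tested genes that scaling gave 5353 higher and 4999 lower, 4807 and 4568, 4978 and 4745, and 4191 and 4215, against which every count with this scaling, those of the pathway lists included, must be read. Quantile normalization gave 6 and 2, 5 and 2, 5 and 2, and 5 and 1 of the 10, and 4612 and 5682, 3947 and 5245, 4095 and 5314, and 3317 and 4255 of all tested genes. Ddit3, Atf5 and Asns were called higher under both scalings except Ddit3 in fl/fl at 6 weeks with quantile normalization (0.32, adjusted p = 0.12), but their changes were smaller. In fl/fl at 3 weeks Ddit3 went from 1.47 to 1.05 with median-of-ratios scaling and 0.68 with quantile normalization, and in PTKO at 3 weeks Atf5 went from 1.47 to 1.05 and 0.77. Herpud1 and Sesn2 were called lower under both scalings except Herpud1 in PTKO at 6 weeks with quantile normalization (0.11, adjusted p = 0.57). Without the 4 libraries named above, PTKO DMSO is a single library, replicate 1, which is assumed to vary like the other groups. No counts are therefore given for that fit. For Hspa5, whose highest value was in a library left out there, the log2 change in PTKO at 3 weeks was 0.84 in it, against 0.30 with all libraries.

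The other genes of the pathways were read from lists of known pathway genes, which include some of the 10. These lists, too, were chosen with earlier results of these data known. Each list count for AAI against DMSO, here and below, must be read against the share of all tested genes. At 3 weeks that was 58% higher and 18.2% lower in fl/fl, and 57.2% and 13.9% in PTKO. At 6 weeks it was 59.8% and 13.9% in fl/fl, and 53.7% and 11.4% in PTKO. The sensors and kinases had medians near the all-gene shift of 0.45 in fl/fl at 3 weeks. Of 16 integrated stress response kinases and eIF2 controllers, 13 rose and 2 (Eif2ak1, the haem-regulated kinase, and Ppp1r15b, a phosphatase subunit) fell in fl/fl at 3 weeks, with a median log2 change of 0.49, but with median-of-ratios scaling 3 rose and 5 fell. Ppp1r15a, which encodes GADD34, the CHOP-induced phosphatase subunit that reverses eIF2 phosphorylation, rose by 1.42 (SE 0.19, adjusted p = 5.4e-06), and its libraries went from 15.4, 13.6 and 14.5 CPM to 42.3, 36.0 and 43.5 CPM. Eif2ak2, the double-stranded RNA kinase PKR, rose by 1.06 (adjusted p = 1.4e-07), Eif2ak3, which encodes PERK, by 0.69 (adjusted p = 0.00014) and Eif2ak4, the amino acid sensor GCN2, by 0.54 (adjusted p = 0.0037). Eif2s1, the phosphorylated subunit of eIF2, rose by 0.54 and the adaptor Nck1 by 0.72.

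Of 11 tested unfolded protein response sensors and ER-bound factors (Ern2 was below the filter), 7 rose and none fell in fl/fl and 8 rose and none fell in PTKO at 3 weeks, against 2 and 3, and 1 and 3, with median-of-ratios scaling. In fl/fl at 3 weeks the log2 change was 0.14 for Ern1, which encodes IRE1 (adjusted p = 0.24), and 0.14 for Atf6 (adjusted p = 0.11), neither past the threshold. Creb3l1, a factor of collagen-secreting cells, rose by 1.81 in fl/fl, its relative Creb3 by 0.89, Atf6b by 0.62 and the protease Mbtps1, which activates ATF6, by 0.35.

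The targets of ATF4 and CHOP had the larger medians. Among 17 tested targets outside amino acid supply (Fgf21 was below the filter), 14 rose in each of the 4 AAI comparisons, with list medians of 1.59, 1.52, 1.57 and 1.51, and Vldlr, a lipoprotein receptor, fell in all 4 (-1.11 in fl/fl at 3 weeks). With median-of-ratios scaling 12 or 13 rose and 2 fell. The list includes Ddit3, Atf5, Trib3, Chac1 and Sesn2, so it is not separate from the genes described above. Atf3, an immediate stress factor, went from 0.727, 0.813 and 1.37 CPM in fl/fl DMSO to 25.9, 39.1 and 51.0 CPM at 3 weeks (log2 change 4.29, adjusted p = 2.2e-09). Nupr1, a stress-induced chromatin protein, went from 5.99, 6.45 and 6.82 CPM to 50.1, 68.2 and 66.5 CPM (3.06), Eif4ebp1, a brake on translation, from a mean of 7.73 to 43.0 CPM (2.33), and Tnfrsf10b, the death receptor DR5, from 1.43 to 18.1 CPM (2.97). Ddit4, which restrains mTORC1, rose by 1.71 (adjusted p = 3.0e-07).

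The amino acid genes divided. Of 14 synthesis and serine-folate enzymes, 9 rose and 3 fell in fl/fl at 3 weeks, and 8 rose and 3 fell in each of the other AAI comparisons. Median-of-ratios scaling gave 7 or 8 higher and 4 or 5 lower, while quantile normalization left 3 or 4 higher at 6 weeks. Mthfd2, the mitochondrial folate enzyme, rose by 2.69 (1.63, 1.88 and 2.96 CPM to 18.9, 17.6 and 20.9 CPM) and Aldh18a1, of proline synthesis, by 2.79. The 3 that fell were Shmt2, the mitochondrial serine hydroxymethyltransferase (-2.08), and the transsulfuration enzymes Cth (-2.98) and Cbs (-3.04). Cbs went from 274, 289 and 257 CPM to 33.9, 39.6 and 25.1 CPM. Beside these falls stand the summed proximal tubule markers given above, whose part was not tested.

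Of 8 tested amino acid transporters (Slc7a3 was below the filter), 5 rose and 1 fell in fl/fl and 6 rose and none fell in PTKO at 3 weeks, with medians of 1.65 and 1.38. Slc7a5, the large neutral amino acid transporter, rose from 2.91, 2.74 and 3.01 CPM to 32.1, 34.2 and 39.3 CPM (log2 change 3.22), Slc7a1, the cationic transporter, by 2.46 and Slc38a2, the system A transporter, by 1.61. Slc7a11, the cystine importer, was at 0 to 0.121 CPM in the fl/fl DMSO libraries and at 13.1, 16.9 and 22.5 CPM after 3 weeks. Slc1a4, a neutral amino acid exchanger, fell by 0.54. Of 12 tRNA synthetases under ATF4, 11 rose in fl/fl and 10 in PTKO at 3 weeks, with medians of 0.54 and 0.36 that lie near the all-gene shift, and with median-of-ratios scaling 4 rose and 1 fell, and 1 rose and 4 fell. Wars, the tryptophan enzyme and also an interferon-induced gene, rose by 1.14, Cars by 0.95, Gars by 0.65 and Tars by 0.58.

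**Figure D3:**
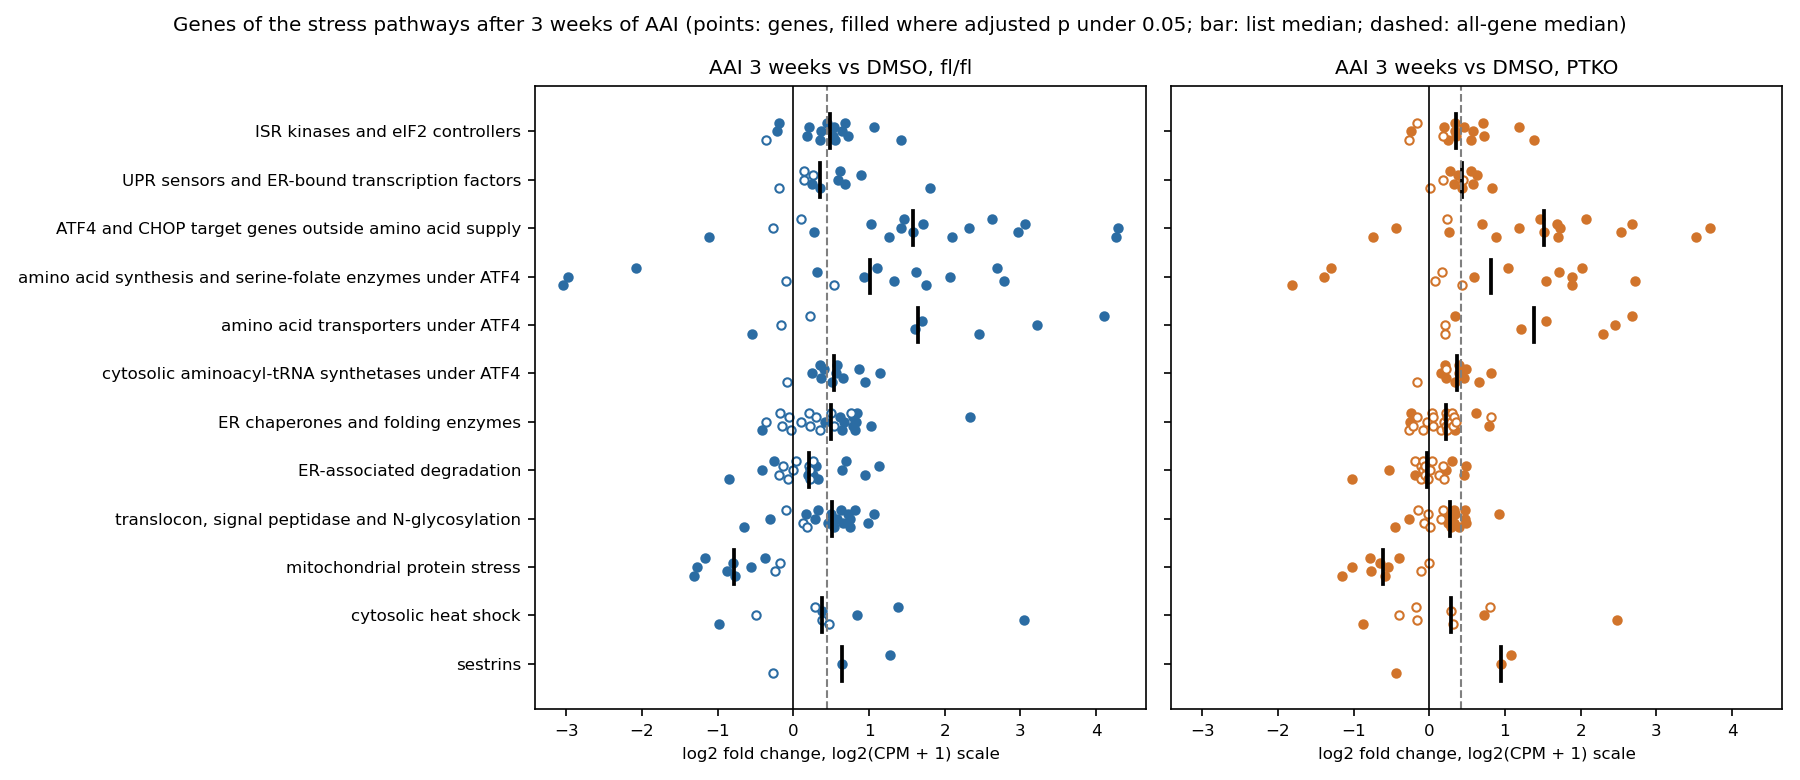
Log2 fold change after 3 weeks of AAI (x axis, log2(CPM + 1) scale) of each tested gene in 12 pathway lists (rows), in fl/fl (left) and PTKO (right), filled where the adjusted p was under 0.05, with a bar at the list median and a dashed line at the all-gene median. The ATF4 and CHOP targets and the amino acid transporters have medians of 1.59 and 1.65 in fl/fl, against 0.50 for ER chaperones and -0.78 for mitochondrial protein stress.

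The ER folding machinery had list medians of 0.50 and 0.22 at 3 weeks and 0.48 and 0.24 at 6 weeks, near or below the all-gene medians. Of 25 ER chaperones and folding enzymes, 11 rose and 1 fell in fl/fl and 3 rose and 2 fell in PTKO at 3 weeks, and 9 and 2, and 6 and 1, at 6 weeks. Median-of-ratios scaling turned the balance to 5 higher and 5 lower, 1 and 6, 2 and 5, and 0 and 4. Without the 4 libraries named above, PTKO at 3 weeks is compared with the single PTKO DMSO replicate 1, so no count is given for that fit. Txndc5, a disulfide isomerase, rose by 1.03 in fl/fl at 3 weeks, Dnajc10, an ER reductase, by 0.83, Ppib, a prolyl isomerase, by 0.81 and Erp29 by 0.79. Hsp90b1, the ER form of HSP90, rose by 0.62 in fl/fl (adjusted p = 0.043) and was not called in PTKO (0.23, adjusted p = 0.45).

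PTKO DMSO replicate 3 bears on every comparison that uses the PTKO DMSO group, and on the others through the shared estimate of spread. Without it the Hspa5 change in fl/fl at 3 weeks stayed at 0.50, but its limma adjusted p went from 0.20 to 0.064. The mean log2 level of the 25 chaperones was 7.31 in PTKO DMSO replicate 3, against 6.50 to 6.67 in the other 5 DMSO libraries and 6.83 to 7.32 with AAI. That of 9 cytosolic heat shock genes was 6.36, against 5.47 to 5.64 in the other DMSO libraries. Hyou1, an ER chaperone, read 435 CPM in that library and 151 and 156 CPM in its group mates, and Hsph1, a cytosolic one, 417 CPM against 143 and 143 CPM. Ddit3, Chac1 and Asns were the lowest of their group there, at 6.36, 0.377 and 2.75 CPM, while Trib3, Atf4, Atf5 and Xbp1 were the highest, at 1.02, 81.5, 9.86 and 205 CPM. At 6 weeks PTKO replicate 2 was the highest in both lists, at 7.32 and 6.61, and it also had 689 CPM of summed adipocyte markers, against 145 to 213 CPM in 16 of the libraries and 307 CPM in PTKO DMSO replicate 2. The part of these libraries' state in the results was not tested beyond leaving them out.

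**Figure D4:**
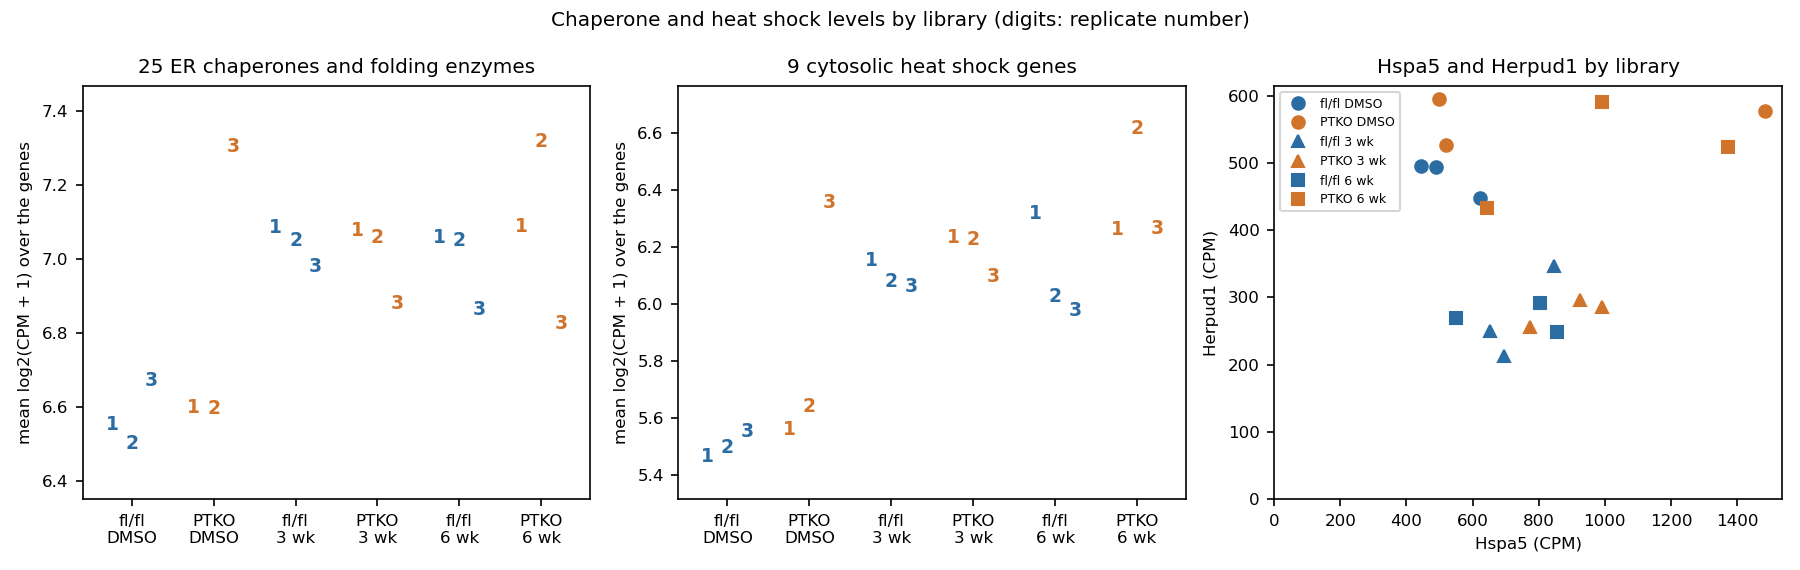
Mean log2(CPM + 1) of 25 ER chaperones (left) and 9 cytosolic heat shock genes (middle) in each library, shown by its replicate number on a y axis that does not start at 0, and Herpud1 against Hspa5 in CPM for the 18 libraries (right). PTKO DMSO replicate 3 lies at 7.31 and 6.36, apart from the other DMSO libraries, and the right panel shows the AAI libraries with low Herpud1 and the 6-week PTKO libraries at 433 to 591 CPM.

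Of 20 genes of ER-associated degradation, the list that holds Herpud1, 8 rose and 3 fell in fl/fl and 4 rose and 3 fell in PTKO at 3 weeks, with medians of 0.21 and -0.03, below the all-gene medians. With median-of-ratios scaling 1 rose and 11 fell, and 0 rose and 15 fell. Herpud1 had the largest fall of the list in both. The ubiquitin-conjugating enzymes Ube2g2 and Ube2j1 rose by 0.95 and 0.65 in fl/fl, Edem2, which marks misfolded glycoproteins, by 0.69 and Faf2 by 0.27. Of 20 tested translocon, signal peptidase and glycosylation genes (Sec61g was below the filter), 15 rose and 2 fell in fl/fl and 12 rose and 2 fell in PTKO, against 5 and 6, and 1 and 8, with median-of-ratios scaling. Spcs3 (1.07), Sec11c (0.98), Sec61a1 (0.75) and Ddost (0.75) were the named risers in fl/fl.

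The second question was whether the genotype changed the response. With DMSO none of the 10 genes differed between PTKO and fl/fl (limma, 0 at an unadjusted p under 0.05, 0 by edgeR and 0 by DESeq2), where 0.288% of all tested genes did by limma. The shares of all tested genes called by edgeR or DESeq2 are not given. Counts by those methods, here and below, thus have no background to be read against. After 3 weeks of AAI 1 of the 10, Atf5, was lower in PTKO, against 8% of all tested genes lower and 6.22% higher. After 6 weeks 1 of the 10, Herpud1, was higher in PTKO, against 3.27% higher and 11.8% lower.

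Atf5 was 32.7 to 41.2 CPM in fl/fl and 24.69 to 25.02 CPM in PTKO at 3 weeks, a log2 difference of -0.51 (95% interval -0.80 to -0.23, adjusted p = 0.020), with no overlap. The call was lost without 3-week fl/fl replicate 3 (-0.42, adjusted p = 0.12), PTKO replicate 2 (-0.51, adjusted p = 0.084) or PTKO replicate 3 (-0.52, adjusted p = 0.061). At 6 weeks the difference was -0.33 (-0.62 to -0.05, adjusted p = 0.098), and the groups overlapped. Atf4, Trib3 and Xbp1 had log2 differences of PTKO from fl/fl at 3 weeks of -0.30 (adjusted p = 0.10), -0.34 (adjusted p = 0.18) and -0.21 (adjusted p = 0.37), none of which passed. Their libraries did not overlap between genotypes at 3 weeks either, which only describes them. The share of all tested genes without overlap was not computed, for this or any other comparison. Ddit3 went the other way, at 0.33 (-0.05 to 0.71, adjusted p = 0.22) at 3 weeks and 0.40 (0.02 to 0.78, adjusted p = 0.14) at 6 weeks. For Chac1 and Asns at 3 weeks the differences were -0.32 (-0.83 to 0.19) and -0.16 (-0.46 to 0.13). At 6 weeks Asns did not overlap between genotypes, with a difference of -0.31 (-0.61 to -0.01, adjusted p = 0.14). At an unadjusted limma p under 0.05, 2 of the 10 genes differed at 3 weeks (Atf4 and Atf5) and 4 at 6 weeks (Ddit3, Atf5, Asns and Herpud1). The share of all tested genes at that threshold was not computed. The unadjusted counts, here and in the other comparisons, thus have no background to be read against.

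Herpud1 at 6 weeks stood at 248 to 292 CPM in fl/fl and 433 to 591 CPM in PTKO, 1.91-fold higher in mean CPM and without overlap. The log2 difference was 0.92 (95% interval 0.61 to 1.24, adjusted p = 0.0018), and it was called in each fit that left out 1 library. At 3 weeks the difference was 0.08 (-0.24 to 0.39, adjusted p = 0.77) and with DMSO 0.24 (-0.07 to 0.55, adjusted p = 0.91), where the groups did not overlap either (447 to 495 CPM in fl/fl and 526 to 595 CPM in PTKO). The cell type markers that differed between genotypes at 6 weeks are given with the lists below, and their part in this was not tested.

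The difference between genotypes in the AAI effect was tested as an interaction. No gene of the 10 was called in it at 3 weeks (2 at an unadjusted p under 0.05, Atf4 and Atf5; 0 by edgeR, and Atf5 alone by DESeq2) or at 6 weeks (2 unadjusted, Atf5 and Herpud1; 0 by edgeR and 0 by DESeq2). For adjusted calls by limma the background was 0.281% of tested genes at 3 weeks (0.164% higher and 0.116% lower) and 0.0685% at 6 weeks (0.0274% and 0.0411%). For Atf5 the interaction was -0.63 at 3 weeks (95% interval -1.03 to -0.23, limma adjusted p = 0.10, DESeq2 adjusted p = 0.0498), and for Herpud1 0.68 at 6 weeks (0.24 to 1.13, limma adjusted p = 0.21). The genotypes are therefore not shown by limma to differ in how AAI changed these genes.

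Among all tested genes 14.2% differed between genotypes at 3 weeks and 15.1% at 6 weeks, and the counts of the wider lists stand beside those shares. At 3 weeks the ATF4 and CHOP targets had 4 of 17 lower in PTKO (Atf5, Cebpb at -1.10, Eif4ebp1 at -0.63 and Nupr1 at -0.58) and Vldlr higher (0.48). Nupr1 read 42.4, 42.8 and 36.5 CPM in PTKO, below all fl/fl libraries. Among transporters Slc7a11 was 7.88, 2.24 and 3.52 CPM in PTKO against 13.1 to 22.5 CPM in fl/fl (-1.84, adjusted p = 0.0074), Slc7a5 was lower (-0.72) and Slc1a4 higher (0.60). Cth (1.56), Cbs (1.48) and Shmt2 (0.85), which AAI lowered, were higher in PTKO and Pycr1, of proline synthesis, lower (-0.56). In the ER lists Ppib (-0.33), Txndc5 (-0.39), Edem2 (-0.42) and Creb3l1 (-0.89) were lower in PTKO. Of the translocon list 5 were lower (Sec11c at -0.54, Ssr4 at -0.48, Sec61b at -0.38, Ddost at -0.23 and Spcs1 at -0.21, Sec61b and Spcs1 being named here after their values were seen) and Sec62 was higher (0.36). Called at 3 weeks, in either direction, were 5 of 17 ATF4 and CHOP targets, 3 of 8 transporters, 4 of 14 amino acid enzymes and 6 of 20 translocon genes. Also called were 2 of 25 chaperones, 1 of 20 degradation genes, 1 of 11 sensors, 0 of 16 eIF2 controllers and 0 of 12 tRNA synthetases. The share of all tested genes was 14.2%. At 6 weeks 2 of the 17 ATF4 and CHOP targets were lower in PTKO, Nupr1 (-0.57) and Stc2 (-0.62), a secreted glycoprotein named after its value was seen. Slc7a11 was again lower at 6 weeks, at 1.09, 3.00 and 1.59 CPM in PTKO against 20.3, 6.31 and 8.97 CPM in fl/fl (-2.06), as was Slc7a5 (-0.57). At 3 weeks the same libraries differed in cell type markers: of 10 macrophage markers 9 were lower in PTKO, and of 10 proximal tubule markers 8 were higher. At 6 weeks 6 of 10 fibroblast, 4 of 10 macrophage and 3 of 6 plasma cell markers were lower in PTKO, and 3 of 10 proximal tubule markers were higher. The part of that difference in these calls was not tested.

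The third question was whether the genes changed between 3 and 6 weeks. In fl/fl none of the 10 passed the test (1 at an unadjusted p under 0.05, Sesn2 at -0.47, limma adjusted p = 0.092; 0 by edgeR and 0 by DESeq2), where 13.2% of tested genes did (7.16% higher and 6.07% lower). Without DMSO fl/fl replicate 1, which is in neither group but shares in the estimate of spread, Sesn2 was called (adjusted p = 0.044). In PTKO 1 of the 10, Herpud1, rose, where 2.92% of tested genes rose and 8.26% fell. It went from 256 to 297 CPM at 3 weeks to 433 to 591 CPM at 6 weeks, a log2 change of 0.88 (95% interval 0.56 to 1.19, adjusted p = 0.0030), while in fl/fl the log2 change was 0.03 (-0.28 to 0.34, adjusted p = 0.92). The test of that difference, the genotype by time interaction, gave 0.85 (0.40 to 1.29) but a limma adjusted p = 0.255, in a comparison where 0% of tested genes passed by limma. Of the 10 genes edgeR called 0 there and DESeq2 called 1, Herpud1 (0.96, adjusted p = 0.027), without a share of all tested genes by either method. Asns was lower at 6 than at 3 weeks without overlap in both genotypes, by -0.19 (adjusted p = 0.39) in fl/fl and -0.33 (adjusted p = 0.13) in PTKO, neither called.

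Across the 18 libraries the genes with the most similar pattern were found by Pearson's r of log2(CPM + 1) among 11793 tested genes with a mean of at least 5 CPM. The libraries fall into a DMSO and an AAI set, so r mainly reflects that division for Ddit3 and Chac1, which did not overlap between them within a genotype. Hspa5, whose highest value was in a DMSO library, was not cleanly divided in that way. No r carries a p. Ddit3 was closest to Gdf15, a secreted stress hormone (r = 0.969), Aldh1a1, a retinaldehyde dehydrogenase (0.965), and Sprr2g (0.964). Chac1 was closest to Hddc2 (0.951), Taf5l (0.948) and Msto1 (0.943). Hspa5 was closest to 3 ER proteins, the chaperone Hyou1 (0.968), the disulfide isomerase Pdia4 (0.965) and Creld2 (0.961), 3 genes that, like Hspa5, were highest in PTKO DMSO replicate 3 and 6-week PTKO replicate 2.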

How the data were processed

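Kidney cortex total RNA was sequenced from a stranded library kit, per the labels' protocols. The submitters' processing notes name the genome build mm10 and the tools kallisto and bcl2fastq (2.19). The strand setting of the counting is not given in the sources used here. The deposited table holds CPM values that the authors computed per gene symbol in 18 libraries (3 per group). In 100% of 433116 values the CPM corresponded to whole reads within 0.01 read, which gave the library totals and the reads for edgeR and DESeq2. Of the symbols, 27 are in a form that spreadsheets turn into dates, and none of them is used here.

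The 14604 genes that reached 1 CPM in 3 or more libraries were fitted with limma 3.58.1 in R 4.3.3 on log2(CPM + 1), as 6 group means with 12 residual degrees of freedom, a mean-variance trend and Benjamini-Hochberg adjustment over all tested genes at 0.05, in 12 comparisons. A change on this scale understates that of genes near 1 CPM. The fit was also run on simulated data in which few genes changed, without the wide shift seen with AAI. That run does not bear on how the calls depend on scaling, and nothing is drawn from it. Alternatives were a pseudocount of 0.1, quantile normalization, median-of-ratios scaling, a filter at 5 CPM or none, the compared groups alone, a replicate block, no trend, edgeR 4.0.16, DESeq2 1.42.0 and leaving out each library. Leaving out 4 libraries together was chosen after seeing the data. The 10 genes and all gene lists were chosen with earlier results of these data known. Named from each pathway list were up to 4 called genes with the smallest adjusted p, after 3 weeks of AAI in fl/fl and between genotypes at 3 weeks, and fixed examples (the eIF2 kinases, Ern1, Atf6, Ppp1r15a, Atf3, Hsp90b1, Ddit4 and the sestrins); genes that fell against their list are also named, after their values were seen. Gene positions are from GENCODE M21 on mm10 and promoters from RefSeq on GRCm38.p6.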

Additional observations from a re-analysis of the deposited data

How the results depend on the processing

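Among the alternatives that kept all libraries, the number of the 10 genes called differed by more than 1.5 times from the reported one in 4 comparisons. Between genotypes at 3 weeks of AAI it was 2 with quantile normalization, which added Atf4 (-0.34, limma adjusted p = 0.0493). Between genotypes at 6 weeks it was 2 with quantile normalization and 2 by DESeq2, both adding Ddit3 (0.60, limma adjusted p = 0.039, and 0.52, DESeq2 adjusted p = 0.0449). In the genotype by AAI interaction at 3 weeks it was 1 by DESeq2 (Atf5), and in the genotype by time interaction 1 by DESeq2 (Herpud1). The direction of Chac1 turned with quantile normalization in PTKO at 3 weeks (-0.12, limma adjusted p = 0.67) and in fl/fl at 6 weeks (-0.16, adjusted p = 0.56). The cause of these changes was not tested. A filter at 5 CPM removed Trib3 and Chac1 and so gave no value for them.

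Leaving out each library in turn gave 8 to 9 genes called for AAI in fl/fl at 3 weeks, 7 to 9 in PTKO at 3 weeks, 8 to 9 in fl/fl at 6 weeks and 7 to 8 in PTKO at 6 weeks. Between times it gave 0 to 1 in fl/fl and 1 in PTKO, and between genotypes 0 with DMSO, 0 to 1 at 3 weeks and 1 at 6 weeks. Each of the 3 interactions stayed at 0.

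Replicate numbers did not pair the libraries: across 45 pairs with the same number, the correlation of deviations from the group means ran from -0.372 to 0.491 (median 0.008), and 6 of the 18 libraries correlated best with one of their own number. With the replicate number as a block, 8, 9, 9 and 8 of the 10 genes were called in the 4 AAI comparisons, 0 and 1 between times, 0, 1 and 1 between genotypes and 0 in each interaction, and no call of the 10 genes changed.

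Groups of 3 limit every interval, and the PTKO DMSO group also limits Hspa5 and the chaperones through replicate 3. Trib3 and Chac1 are limited by depth, at 7 to 20 reads per library with DMSO.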

Other observations

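Of 10 genes of mitochondrial protein stress, 8 fell and 0 rose in fl/fl and in PTKO at 3 weeks of AAI, 8 fell in fl/fl at 6 weeks and 7 in PTKO (limma, medians -0.78, -0.62, -0.59 and -0.42), and all 10 were lower with median-of-ratios scaling. Trap1, the mitochondrial HSP90, went from 368, 392 and 349.8 CPM in fl/fl DMSO to 162, 152 and 145 CPM at 3 weeks, a log2 change of -1.27 (adjusted p = 9.7e-08), and Clpx, a matrix protease subunit, fell by 1.17, Dnaja3, a co-chaperone, by 0.80 and the protease Lonp1 by 0.77. At 3 weeks 4 of the 10 were higher in PTKO than in fl/fl (Trap1 at 0.42, Clpx at 0.41, Hspa9 at 0.40 and Dnaja3 at 0.37). The proximal tubule markers fell with them, 10 of 10 in fl/fl and 9 of 10 in PTKO at 3 weeks, and their part in this was not tested.

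Of 9 cytosolic heat shock genes, 4 rose and 1 fell in fl/fl and 2 rose and 1 fell in PTKO at 3 weeks, with medians of 0.38 and 0.29 below the all-gene 0.45 and 0.42, against 3 and 2, and 2 and 3, with median-of-ratios scaling. Hspb1, a small heat shock protein, went from 1.15, 1.12 and 1.11 CPM in fl/fl DMSO to 17.2, 14.4 and 18.2 CPM (log2 change 3.05, adjusted p = 2.9e-08), Hspa1b rose by 1.38 and the co-chaperone Bag3 by 0.84. Hsph1 fell in fl/fl, by 0.98 (adjusted p = 0.018).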
